A study of Mus musculus with 36 samples.

Results

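The mouse proteasome subunit genes were taken as every gene of the count table whose symbol is Psma, Psmb, Psmc, Psmd or Psme followed by a number and nothing else. This gave 43 of 27179 genes, of which 41 had enough counts to be tested and 2, Psma8 and Psmb11, did not. Of the 43, 5 form the immunoproteasome set (Psmb8, Psmb9, Psmb10, Psme1 and Psme2), and 36 of the other 38 were tested. The genes were measured by RNA sequencing in 36 libraries of AH47A, 287 and 621, 3 mouse lymphoma cell lines of Em-myc background, in which a Myc transgene is driven by an immunoglobulin enhancer. Each line expressed 1 of 5 mutant TRP53 proteins (G280, I192S, R246Q, R270H or V170M), which the series' design text calls human, or a negative control. Each of these was sampled untreated and after 12 hours in 5 µM nutlin-3a, which frees p53 from its inhibitor MDM2, which made 12 groups with 3 libraries each, 1 per line. The nutlin-3a medium also held 25 µM QVD-OPH, an inhibitor of caspases. Not given in the sources used here were the medium of the untreated cultures with regard to QVD-OPH, and whether a line is a single clone, so effects of nutlin-3a and of the inhibitor cannot be told apart.

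The proteasome degrades proteins tagged with ubiquitin. Its barrel-shaped core is built of alpha subunits (Psma genes) at the outer rings and beta subunits (Psmb genes) at the inner rings, where Psmb5, Psmb6 and Psmb7 encode the catalytic subunits. A regulatory particle of ATPases (Psmc genes) and of non-ATPase subunits (Psmd genes) recognises, unfolds and feeds in the substrate, and Psme genes encode activators that bind the core without ATP. In lymphoid cells and under interferon, Psmb8, Psmb9 and Psmb10 replace Psmb5, Psmb6 and Psmb7 in newly made cores. The resulting immunoproteasome cuts many of the peptides that MHC class I shows to T cells, and Psme1 and Psme2 encode the activator most linked to it. p53 itself is a substrate, delivered by MDM2.

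The promoters of 4 members that differ in their response below are shown first, since the immunoproteasome genes are known interferon targets and Psmb9 shares its control region with Tap1, which encodes a subunit of the transporter of peptides for MHC class I. Each window runs from 250 bases before to 50 bases after the gene's start, from RefSeq on build GRCm38.p6, read 5′ to 3′ on the gene's strand. Capitals mark a match, on either strand, to TTCNNNGAA (STAT site) in Psmb8, to CCAAT in Psmb9 and Psmd10, and, in Psme1, to the core of the interferon-stimulated response element, which was searched as GAAA, any pair of bases and GAAA again.
Psmb8 (chr17:34197945-34198244, plus strand): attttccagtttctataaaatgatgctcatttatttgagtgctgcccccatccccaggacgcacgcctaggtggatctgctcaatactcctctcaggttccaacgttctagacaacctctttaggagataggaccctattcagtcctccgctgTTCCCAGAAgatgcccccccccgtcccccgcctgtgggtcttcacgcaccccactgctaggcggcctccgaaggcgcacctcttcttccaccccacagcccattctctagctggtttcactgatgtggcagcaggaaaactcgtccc
Psmb9 (chr17:34187281-34187580, minus strand): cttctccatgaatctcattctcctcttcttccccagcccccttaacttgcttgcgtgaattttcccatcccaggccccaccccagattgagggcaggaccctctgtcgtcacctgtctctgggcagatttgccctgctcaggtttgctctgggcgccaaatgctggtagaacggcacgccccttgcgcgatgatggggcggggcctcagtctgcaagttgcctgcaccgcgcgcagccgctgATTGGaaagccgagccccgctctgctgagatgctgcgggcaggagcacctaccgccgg
Psme1 (chr14:55578244-55578543, plus strand): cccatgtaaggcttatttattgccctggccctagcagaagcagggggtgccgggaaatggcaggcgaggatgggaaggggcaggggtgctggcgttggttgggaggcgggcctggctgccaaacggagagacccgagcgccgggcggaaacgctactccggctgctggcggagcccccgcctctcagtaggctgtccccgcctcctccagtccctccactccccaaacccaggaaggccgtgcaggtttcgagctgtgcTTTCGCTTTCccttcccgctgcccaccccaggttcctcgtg
Psmd10 (chrX:140956662-140956961, minus strand): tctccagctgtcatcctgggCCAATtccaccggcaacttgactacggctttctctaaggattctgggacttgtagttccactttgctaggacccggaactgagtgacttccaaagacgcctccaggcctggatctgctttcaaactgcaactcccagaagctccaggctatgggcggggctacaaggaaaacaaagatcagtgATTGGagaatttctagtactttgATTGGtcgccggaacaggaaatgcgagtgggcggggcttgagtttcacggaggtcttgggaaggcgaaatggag
Both strands were searched in all 32851 promoter windows of the table, and each of these 4 windows held 1 of the kinds searched, so no match overlaps another kind. TTCNNNGAA was in 8.3% of all windows, the interferon response core in 3.44%, CCAAT in 37.41% and TGACNNNGC (core of the antioxidant response element, which NFE2-type factors bind) in 12.39%. Promoters were found for 36 of the 43 members, in 39 windows. The interferon response core was in 4 of these (Psme1 at position 10 from the start, Psmb3, Psmd4 and Psmd9), TTCNNNGAA in 2 (Psmb8 at -97, and Psmd2), CCAAT in 14, and TGACNNNGC in 6 (Psmb5, Psmb6, Psmc6, Psmd9, Psmd12 and Psme4). The Psmb9 window and the window of Tap1, which is transcribed the other way, shared 275 bases (chr17:34187306-34187580). A match of letters is a description and shows no binding.

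The libraries held 5404113 to 10718302 counts, and the 43 genes took 0.574% of all counts. Levels are given as CPM, counts scaled for library size with TMM factors. Counts on Trp53 served as a check of the construct labels, but only of control against mutant and not of 1 mutant against another. Untreated, they ran from 206 to 291 CPM in the 3 control libraries and from 692 to 2585 CPM in the 15 mutant libraries. After nutlin-3a the control stood at 261 CPM in AH47A, 445 CPM in 287 and 299 CPM in 621, and within each line every mutant library was higher. The table does not tell transcripts of a construct from those of the cells' own gene. These counts are on the mouse gene, although the design text calls the mutant proteins human, and the species of the constructs was not tested. The p53 targets Cdkn1a, Mdm2 and Ccng1 rose in all 3 lines. Of the B cell markers, Cd79a ran from 115 to 429.7 CPM, Cd79b from 95.9 to 284 CPM, and Pax5, a B cell transcription factor, from 84.3 to 143 CPM, while Ms4a1 was at or under 8.99 CPM. The T cell markers Cd3e and Cd4 stayed at or under 0.230 CPM and the macrophage genes Lyz2 and Adgre1 at or under 0.247 CPM. The whole T cell list still summed to up to 21.8 CPM, nearly all Zap70, and the myeloid list to up to 58.3 CPM, mostly Itgam, both highest in nutlin-treated 287.

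Before treatment, levels per kilobase of gene length spread widely over the members. Psme3, which encodes a nuclear activator that does not need ubiquitin, was highest at 239 CPM per kb (mean of the 3 lines, 229 to 256 by line). Psmd8, a lid subunit, and Psma6, an alpha-ring subunit, followed at 204 and 200.1 CPM per kb, and their ranges by line overlapped each other and that of Psme3. Among the immunoproteasome genes the order was Psme1 at 86.3, Psmb8 at 60.0, Psmb10 at 32.8, Psmb9 at 19.8 and Psme2 at 6.49 CPM per kb, the last being the lowest of the 41 tested. The ranges by line of these 5 did not overlap except for that of Psmb8, 40.0 to 81.3, with that of Psme1, 76.2 to 102. Of the constitutive catalytic genes, Psmb7 stood at 172, Psmb6 at 90.1 and Psmb5 at 52.8 CPM per kb. Psmb11, of the thymus form, had at most 1 count in any library, and so had Psma8, of the testis form. Some of these levels are uncertain, since reads can also match other genes at 97% identity or more over at least 50 bases of GENCODE transcripts. Such stretches covered 88.4% of the longest transcript of Psmb5 (the pseudogene Gm3375 among them), 82.5% of that of Psme2 (Psme2b), 81.4% of Psma5, 80.7% of Psmb3, 52.7% of Psmd11, 45.8% of Psmc1 and 23.4% of Psma3. For Psmb7, 35.1% lies in Nek6, for Psmb9, 15.7% in Tap1, and for Psmb8, 11.7% in Gm20496, genes that they overlap.

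**Figure D1:**
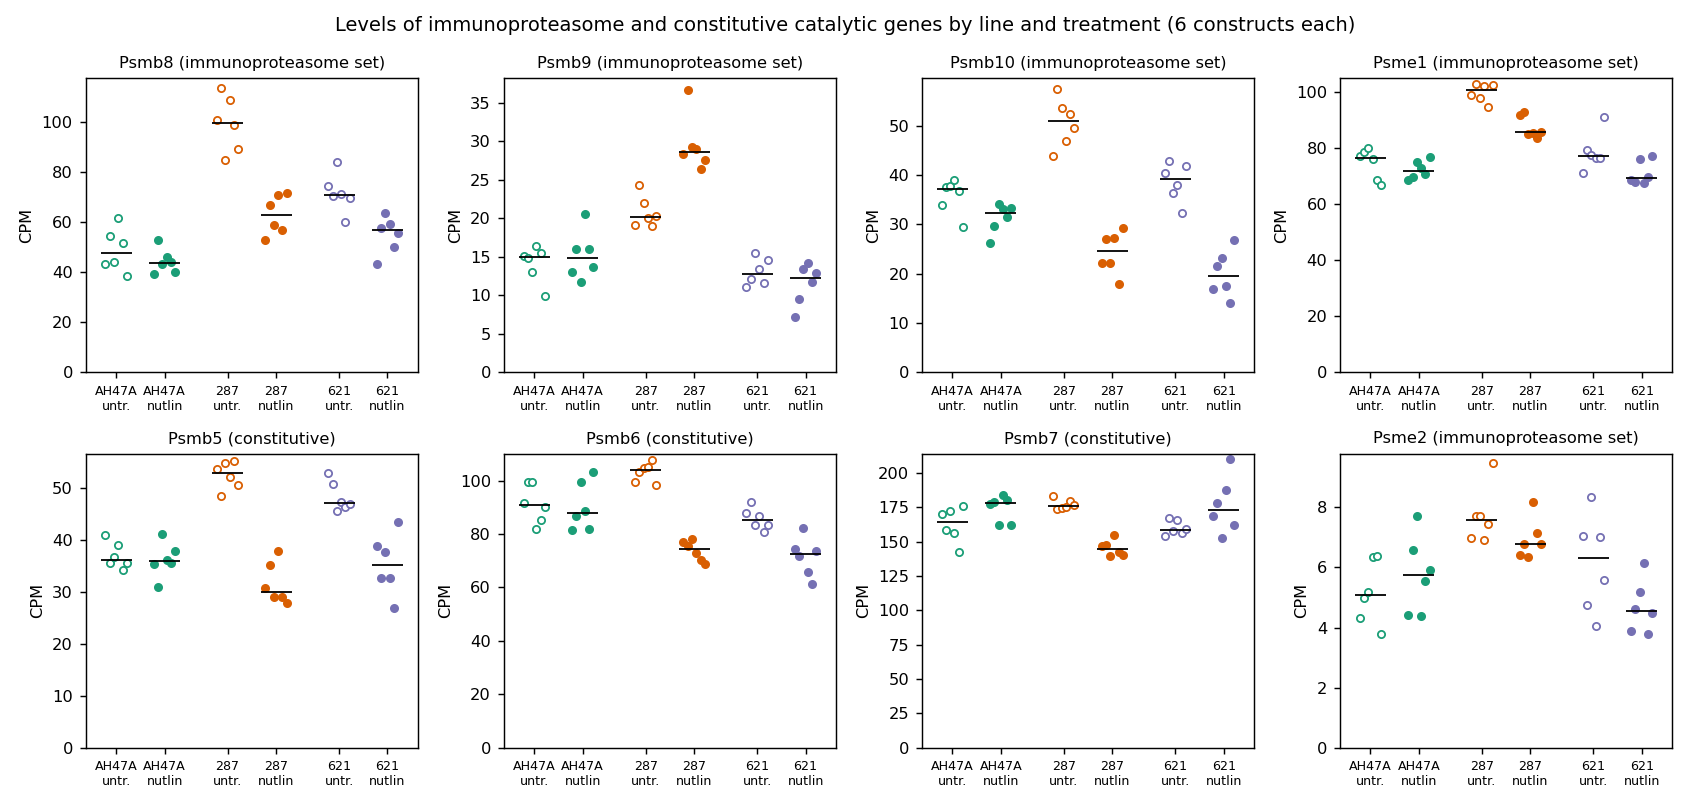
Levels of the 5 immunoproteasome genes and of the constitutive catalytic genes Psmb5, Psmb6 and Psmb7 in CPM (vertical axes), by line and treatment; each point is 1 library, open for untreated and filled for nutlin-3a, and bars are medians of 6 libraries. Psmb8 in untreated 287 lies between 85.1 and 114 CPM, above every AH47A library.

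The 3 lines were first compared untreated, as the mean over 6 constructs that serve as replicates within a line. Line 287 stood apart by higher immunoproteasome transcripts, though not by these alone. All 5 genes of the set were higher in 287 than in AH47A, with a median log2 difference of 0.55, against 0.07 for the other 36 members and 0.01 for all 12321 genes tested. Of the other members, 13 were higher and 8 lower. P-values measure the spread between these libraries, since the labels name no independent repeats of a construct in a line. In all, 18 of 41 members were higher, where 29.7% of all genes were, and 8 were lower, where 29.2% were.

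Psmb8, the replacement for Psmb5, showed the largest of these differences. Its lowest, median and highest levels in untreated libraries were 38.3, 47.7 and 61.8 CPM in AH47A, 85.1, 99.9 and 114 CPM in 287, and 60.0, 70.9 and 83.9 CPM in 621. The 6 libraries of 287 lay above all of the other lines, and 621 overlapped AH47A at the edge. The log2 difference from AH47A was 1.02 ± 0.09 (SE) in 287 (adjusted p = 3.3e-11) and 0.56 ± 0.09 in 621 (adjusted p = 2.5e-06). Psmb9, the replacement for Psmb6, ran from 9.83 to 16.5 CPM in AH47A, from 18.9 to 24.4 in 287 and from 11.1 to 15.5 in 621, so that 287 was again above both others without overlap. Its difference between 287 and AH47A was 0.55 ± 0.13 (adjusted p = 0.00053). Psmb10 differed by 0.50 ± 0.09, Psme1 by 0.42 ± 0.06 and Psme2 by 0.57 ± 0.17. Line 621 differed from AH47A in Psmb8 alone of the 5, and was below 287 in 4 of the 5, the exception being Psme2 (log2 -0.34, adjusted p = 0.065).

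Among the other members the line differences ran in both directions. Psma7, an alpha-ring subunit, had 169 to 205 CPM in untreated AH47A, 83.5 to 106 CPM in 287 and 166 to 195 CPM in 621. Line 287 was thus lower in every library, at a log2 difference of -1.01 ± 0.05 from AH47A (adjusted p = 1.7e-15). Psme4, which encodes a large activator known for its part in sperm development and DNA repair, went the other way, with medians of 315 CPM in AH47A, 524 in 287 and 217 in 621 and no overlap between lines. It differed from AH47A by 0.77 ± 0.07 in 287 and by -0.48 ± 0.07 in 621. In 621 the largest excess over AH47A was in Psma3 (0.90 ± 0.14), followed by Psmd8 (0.53 ± 0.04), Psma6 (0.51 ± 0.05) and Psmc1, a base ATPase (0.46 ± 0.05). In this comparison 15 of the other members were higher and 5 lower, against 29.1% and 29.6% of all genes. Between 621 and 287, 10 of them were higher and 9 lower in 621 (all genes 29.7% and 30.7%). Over the 3 lines together, 33 of 41 members differed untreated, where 79.3% of all genes did. Myeloid markers also differed between the lines: the 6 genes summed to 17.0 to 24.3 CPM in untreated 287, 6.24 to 9.06 in AH47A and 3.78 to 6.53 in 621, most of it Itgam, with Lyz2 at 0.221 CPM or less in 287. Their part in the line differences was not tested.

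Nutlin-3a lowered much of the proteasome gene family in 287, a smaller share in 621, and few members in AH47A. In 287, 27 of the 36 other members fell and 3 rose, with a median log2 change of -0.49. In 621, 18 fell and 7 rose, with a median of -0.14, and in AH47A, 6 fell and 7 rose, with a median of -0.01. Over all genes the medians were between -0.03 and 0 in each line. For the 41 members together, 30 fell in 287, where 35.7% of all genes did, and 4 rose, where 36.2% did. In 621 the 21 that fell stand beside 28.6% of all genes and the 7 that rose beside 26.4%, and in AH47A the 6 that fell stand beside 22.2% and the 7 that rose beside 21.4%. The responses of the 3 lines differed for 34 of 41 members, where 60.3% of all genes tested differed. Against AH47A, the response of 287 was lower for 30 members and higher for 1 (all genes 22.6% and 24.3%), and that of 621 was lower for 16 and higher for 4 (15.8% each way). Against 287, the response of 621 was higher for 22 members and lower for 3 (19.9% and 21.5%). Over the mean of the 3 lines, 26 members fell and 4 rose (37.4% and 34.3%). Without 287 that gave 16 lower. After nutlin-3a the level itself differed between lines for 36 members, where 88.2% of all genes did. In bulk RNA, fewer cells that express a gene and less RNA per cell cannot be told apart.

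**Figure D2:**
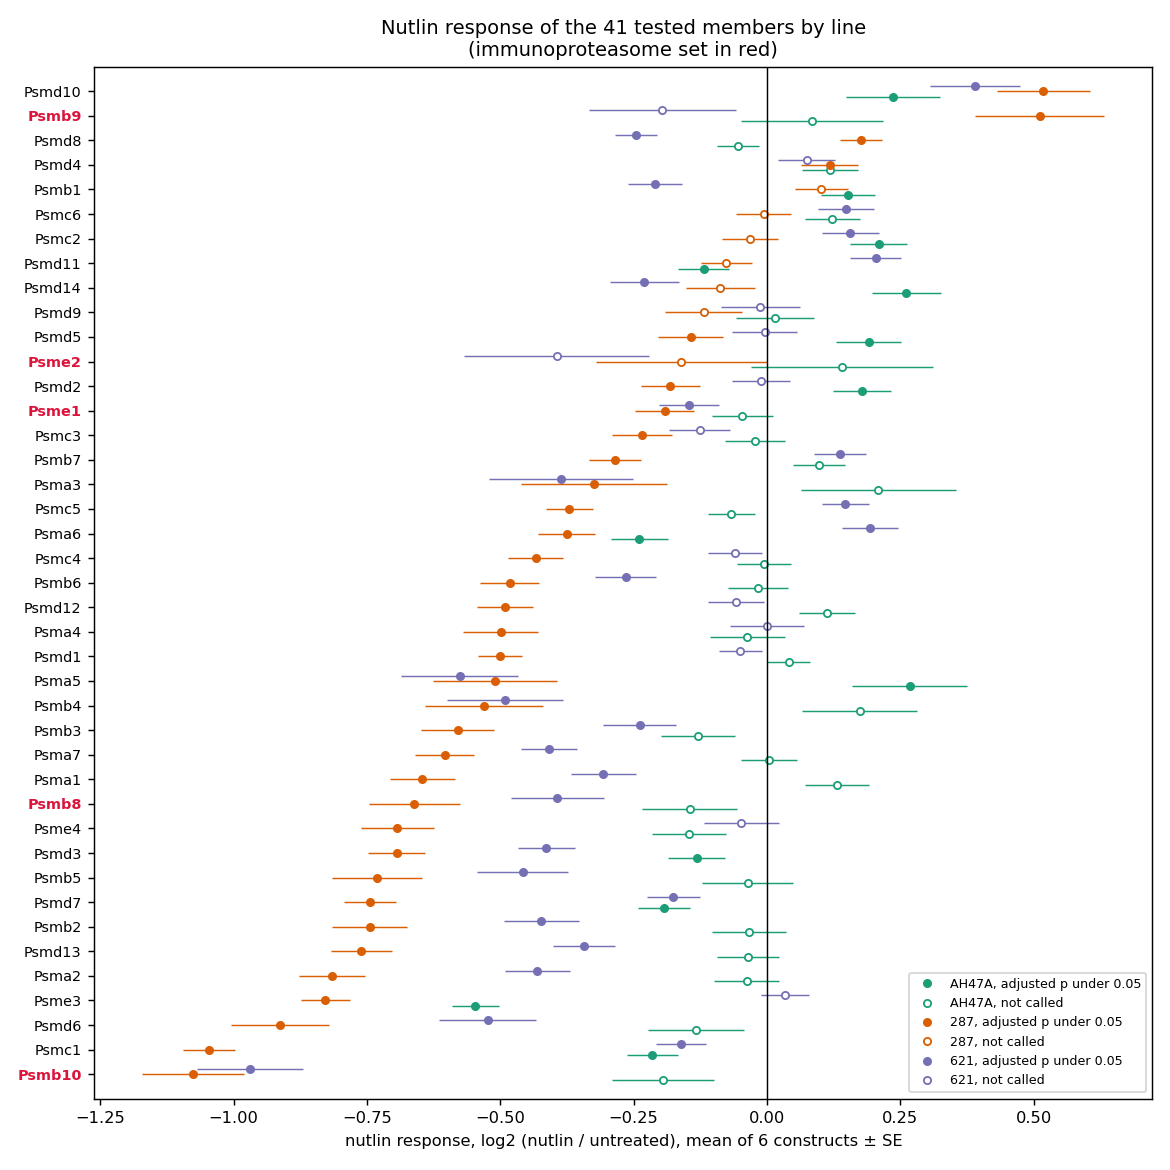
Log2 response to nutlin-3a (horizontal axis, nutlin-3a minus untreated) of the 41 tested members in each line, with standard errors; filled points passed an adjusted p of 0.05. Most points of 287 lie left of 0, between -1.08 and 0.52.

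The catalytic genes of the constitutive core fell in 287. Psmb5, of the chymotrypsin-like subunit, had a lowest, median and highest level of 48.4, 52.99 and 55.2 CPM in untreated 287 and of 27.9, 29.9 and 38.0 CPM after nutlin-3a. The groups did not overlap, and the log2 change was -0.73 ± 0.08 (adjusted p = 8.3e-09). In 621 it changed by -0.46 ± 0.08, with all untreated libraries (45.7 to 52.9 CPM) above all treated ones (26.8 to 43.6 CPM), and in AH47A by -0.04 ± 0.09, which was not called. Psmb6, of the caspase-like subunit, went from 98.5, 104 and 108 to 68.8, 74.3 and 78.3 CPM in 287 (log2 -0.48 ± 0.06) and changed by -0.26 ± 0.06 in 621 and -0.02 ± 0.06 in AH47A. Psmb7, of the trypsin-like subunit, fell in 287 (-0.29 ± 0.05) but rose in 621 (0.14 ± 0.05, adjusted p = 0.019). Its median log2 change by construct was 0.11 in both AH47A and 621, with 4 of 6 constructs higher in AH47A. Whether it was called in AH47A changed in 3 of the fits that left out a line or construct. The rise of Psmb7 in 621 was not called without the R246Q libraries (adjusted p = 0.071) or without those of R270H (0.16). Of the other beta-ring genes in 287, Psmb2 fell by 0.75, Psmb3 by 0.58 and Psmb4 by 0.53 on the log2 scale, and Psmb1 was at 0.10 and not called.

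All 7 tested alpha-ring genes fell in 287, by log2 changes from -0.82 (Psma2) to -0.32 (Psma3). Psma3 was lower in only 4 of 6 constructs there, and its levels overlapped, at 12.3 to 18.1 CPM untreated and 10.6 to 16.2 CPM treated. In 621, Psma5, Psma2, Psma7, Psma3 and Psma1 fell, Psma6 rose by 0.19 ± 0.05 and Psma4 was at 0.00. In AH47A, Psma6 fell by 0.24 and Psma5 rose by 0.27 ± 0.11 on the log2 scale. That call was lost without the libraries of line 621 (adjusted p = 0.07), of the control (0.059), I192S (0.16), R270H (0.078) or V170M (0.19). Psma6, whose product sits in the outer ring next to the gate, thus moved in opposite directions: its median went from 248 to 287 CPM in 621 and from 180 to 136 CPM in 287. The difference in response between the lines was called (adjusted p = 6.4e-07).

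The ATPase genes split. Psmc1 fell further than any other constitutive member in 287. Its lowest, median and highest levels there were 143, 154 and 164 CPM untreated and 67.6, 74.9 and 80.8 CPM after nutlin-3a. No treated library reached an untreated one, and the log2 change was -1.05 ± 0.05 (adjusted p = 4.4e-17). In AH47A it changed by -0.21 ± 0.05 and in 621 by -0.16 ± 0.05, both called. Psmc3, Psmc4 and Psmc5 fell in 287 by 0.23 to 0.43 on the log2 scale. Psmc2 and Psmc6 were at -0.03 and -0.01 there. In AH47A, Psmc2 rose by 0.21 ± 0.05 (adjusted p = 0.0022), with all 6 constructs higher. In 621, Psmc2 (0.16), Psmc5 (0.15) and Psmc6 (0.15) rose, and without the R270H libraries neither Psmc2 (adjusted p = 0.089) nor Psmc6 (0.14) was called. Psmc2 also missed without V170M (0.051).

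Lid genes fell together in 287. The lid holds the deubiquitinase that strips ubiquitin chains from substrates, encoded by Psmd14. Psmd6 went from a median of 79.0 to 41.3 CPM without overlap of the groups (log2 -0.91 ± 0.09), Psmd13 changed by -0.76 ± 0.06, Psmd7 by -0.74 ± 0.05, Psmd3 by -0.69 and Psmd12 by -0.49. The exceptions were Psmd8, which rose by 0.18 ± 0.04 in 287, and Psmd11 and Psmd14, which were at -0.08 and -0.09 and not called. In 621, Psmd6 fell by 0.52, Psmd3 by 0.41, Psmd13 by 0.34 and Psmd8 by 0.24 on the log2 scale, while Psmd11 rose by 0.20 ± 0.05. Psmd14 rose in AH47A (0.26 ± 0.07) and fell in 621 (-0.23 ± 0.07). Psmd7, Psmd3 and Psmd11 were also called lower in AH47A, at median log2 changes by construct of -0.17, -0.12 and -0.04. Of the fits that left out a line or construct, 1 lost this call for Psmd7, 7 for Psmd3 and 6 for Psmd11. Psmd3 and Psmd7 were lower in all 6 constructs of each line. In the base, the scaffold gene Psmd1 fell in 287 (-0.50), Psmd2 fell there (-0.18) and rose in AH47A (0.18), and the ubiquitin receptor gene Psmd4 rose in 287 (0.12 ± 0.05, adjusted p = 0.049). That last call was lost without the control libraries (adjusted p = 0.21), without those of I192S (0.11), R246Q (0.067), V170M (0.052), AH47A (0.16) or 621 (0.12).

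Psmd10 was the only member called higher in all 3 lines. It encodes gankyrin, a chaperone that helps assemble the ATPase base and also binds MDM2 and RB. Its lowest, median and highest levels were 17.0, 20.0 and 22.3 CPM in untreated 287 and 25.3, 29.3 and 31.3 CPM after nutlin-3a. In 621 they went from 23.6, 26.9 and 28.4 to 26.9, 35.3 and 41.4 CPM, and in AH47A from 18.9, 20.2 and 24.8 to 22.3, 24.4 and 27.8 CPM. The groups did not overlap in 287 and overlapped at the edge in the other lines. The log2 changes were 0.52 ± 0.09 in 287, 0.39 ± 0.08 in 621 and 0.24 ± 0.09 in AH47A, and their difference between lines was not called (adjusted p = 0.13). In AH47A the call was lost without the control libraries (adjusted p = 0.16), and without those of G280 (0.055), I192S (0.078) or R270H (0.07). Psmd5 and Psmd9, the other chaperones of the base among the members, behaved otherwise: Psmd5 rose in AH47A (0.19) and fell in 287 (-0.14), and Psmd9 was not called in any line.

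Of the activators, Psme3 fell in AH47A and 287 and not in 621. In AH47A its lowest, median and highest levels were 642, 676 and 696 CPM untreated and 397, 469.9 and 485 CPM treated. In 287 they went from 573, 608 and 634 to 318, 339 and 365 CPM, and in 621 from 592, 594 and 614 to 526, 617 and 715 CPM. Groups were apart in AH47A and 287 and overlapped in 621. The log2 changes were -0.55 ± 0.04, -0.83 ± 0.05 and 0.03 ± 0.04, and the lines differed (adjusted p = 3.8e-11). Psme4 fell in 287 alone (-0.69 ± 0.07), from a median of 524 to 328 CPM, and the lines differed in this response (adjusted p = 4.0e-06).

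The immunoproteasome genes did not move as a block. Psmb10, the replacement for Psmb7, fell most. Its lowest, median and highest levels went from 43.9, 51.0 and 57.5 to 17.8, 24.6 and 29.3 CPM in 287 and from 32.4, 39.2 and 42.9 to 13.9, 19.4 and 26.9 CPM in 621. Neither line had an overlap, and the log2 changes were -1.08 ± 0.09 (adjusted p = 3.6e-11) and -0.97 ± 0.10 (adjusted p = 3.9e-09). In AH47A the levels of 29.5 to 38.9 CPM and 26.2 to 34.3 CPM overlapped, and the change of -0.20 ± 0.10 was not called (adjusted p = 0.098), although it was without the V170M libraries (0.042).

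Psmb8 fell in 287 and 621. It went from 85.1 to 114 CPM untreated to 52.9 to 71.6 CPM treated in 287, without overlap, and from 60.0 to 83.9 to 43.4 to 63.6 CPM in 621, with overlap. The log2 changes were -0.66 ± 0.08 and -0.39 ± 0.09, and in AH47A -0.14 ± 0.09 (adjusted p = 0.2). Psme1 fell by 0.19 in 287 and by 0.15 in 621 on the log2 scale, and the call in 621 (adjusted p = 0.029) was lost without the libraries of AH47A (0.053) or 287 (0.077), or of G280 (0.085), R246Q (0.08), R270H (0.063) or V170M (0.053). Psme2 was not called in any line, at 0.14 in AH47A, -0.16 in 287 and -0.39 in 621. With 21 to 87 counts per library, its standard errors of 0.16 to 0.17 were the largest of the set, and in 621 it was called without the R246Q libraries (adjusted p = 0.0061).

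Psmb9 was the one gene of the set that rose. In 287 its lowest, median and highest levels were 18.9, 20.2 and 24.4 CPM untreated and 26.4, 28.7 and 36.7 CPM treated. Every treated library was above every untreated one, the 6 constructs each rose by 0.41 to 0.59 on the log2 scale, and the fitted change was 0.51 ± 0.12 (adjusted p = 0.00046). In AH47A it changed by 0.08 ± 0.13 and in 621 by -0.20 ± 0.14, neither called. Over the 3 lines the response of Psmb9 differed (adjusted p = 0.0051). The response of 621 was below that of 287 by 0.71 ± 0.18, whereas 287 against AH47A missed the threshold at 0.43 ± 0.18 (adjusted p = 0.053). The responses of Psmb8 (adjusted p = 0.0026) and Psmb10 (3.9e-06) also differed between lines, and those of Psme1 (0.24) and Psme2 (0.15) were not called. The median response of the set was -0.05 in AH47A, -0.19 in 287 and -0.39 in 621, against -0.01, -0.49 and -0.14 for the other members.

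Set against the constitutive partner each one replaces, and per length, the immunoproteasome genes gave 3 pictures. The median ratio of Psmb9 to Psmb6 in 287 went from 0.256 (0.226 to 0.304) to 0.497 (0.473 to 0.6252), the treated libraries all being above the untreated ones. In AH47A it was 0.202 before and 0.220 after, and in 621 0.192 and 0.217. The ratio of Psmb10 to Psmb7 moved the opposite way, from 0.218 to 0.128 in 287 and from 0.186 to 0.0842 in 621 without overlap in either, and from 0.174 to 0.136 with overlap in AH47A. Psmb8 and Psmb5 stayed close in length-scaled level, at median ratios of 0.960 and 0.833 in AH47A, 1.31 and 1.37 in 287, and 1.03 and 1.23 in 621, with overlap in each line. No test was run on these ratios. The ratio to Psmb5 is uncertain, since 88.4% of its longest transcript also matches other genes. The summed level of the 36 other members in 287 fell from a median of 6010 CPM (5808 to 6127) to 4476 CPM (4295 to 4581). In 621 it went from 5927 to 5475 CPM and in AH47A from 5784 to 5563 CPM, both with overlap.

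**Figure D3:**
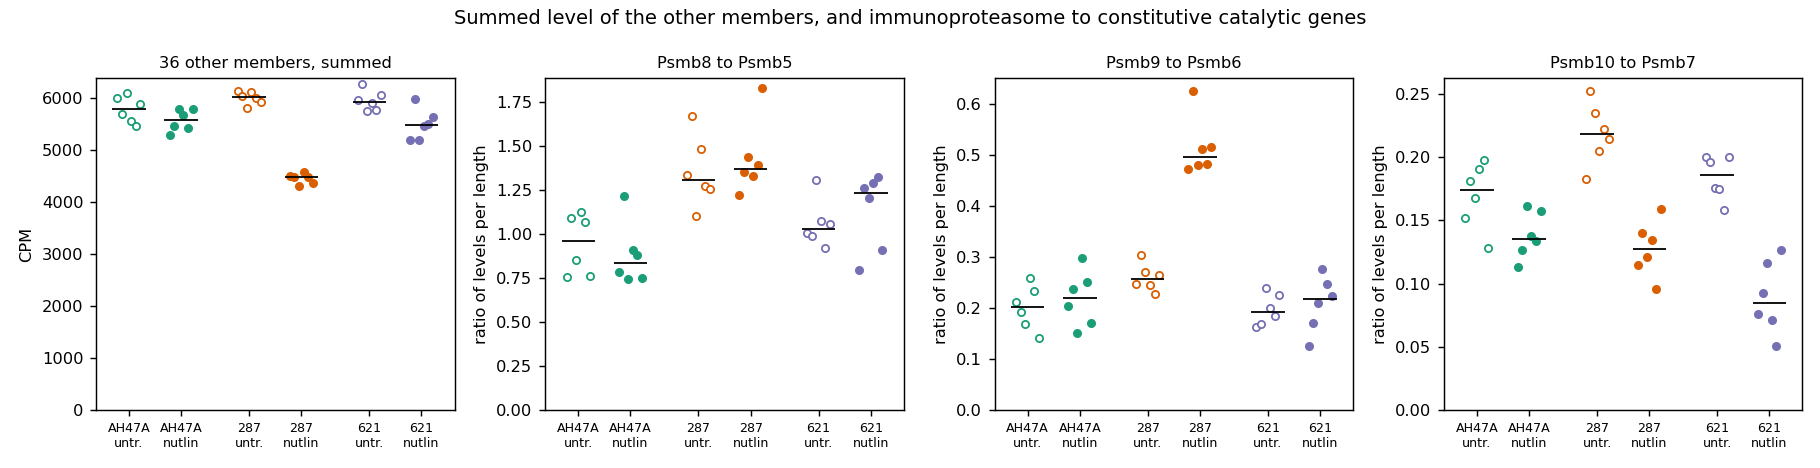
Summed level of the 36 other members in CPM (left panel) and ratios of levels per length of Psmb8 to Psmb5, Psmb9 to Psmb6 and Psmb10 to Psmb7, by line and treatment; points are libraries (open untreated, filled nutlin-3a) and bars are medians of 6. In 287 the sum drops to 4476 CPM and the Psmb9 to Psmb6 ratio reaches 0.497.

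Psmb9 and Tap1, which lie back to back on chromosome 17 (Psmb9 at 34182030 to 34187330, Tap1 at 34187556 to 34197225), responded by very different amounts. Tap1 went from a median of 34.2 to 275 CPM in 287, from 25.8 to 79.8 CPM in AH47A and from 20.0 to 66.7 CPM in 621, and in each line every treated library was above every untreated one. Its log2 changes were 2.95 ± 0.17, 1.55 ± 0.17 and 1.78 ± 0.18. The smallest response of Tap1 in any construct and line was 0.82, and the largest of Psmb9 was 0.59. These RefSeq genes do not overlap. GENCODE annotates longer transcripts, in which Psmb9 and Tap1 exons share 212 bases on opposite strands. These are 5.8% of all exon bases of Psmb9 and 15.7% of its longest transcript. The annotation and strand setting of the counting are not known here, and whether reads of Tap1 were counted for Psmb9 was not tested. Psmb8, on the same chromosome at 34198195 to 34201454 and just past the end of Tap1, fell in 287 and 621 as given above.

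**Figure D4:**
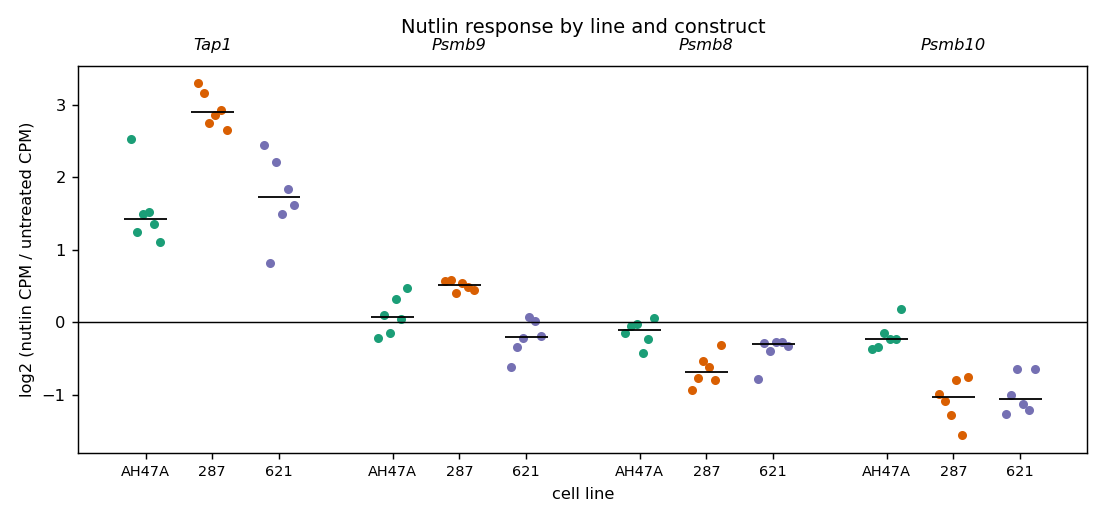
Log2 response to nutlin-3a (vertical axis) of Tap1, Psmb9, Psmb8 and Psmb10 in each line; each point is 1 construct and bars are medians of 6. All Tap1 points lie above 0.8, all Psmb9 points of 287 between 0.41 and 0.59, and all Psmb10 points of 287 and 621 below 0.

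Several genes of class I peptide loading rose. The shares of all genes that rose and fell, for the counts of this and the next lists, were 36.2% and 35.7% in 287, 26.4% and 28.6% in 621, and 21.4% and 22.2% in AH47A. Of 9 loading genes tested, 6 rose and 2 fell in 287, 4 rose and 1 fell in 621, and 5 rose in AH47A, with median changes of 1.13, 0.35 and 0.30. Tapbp, which encodes the loading chaperone tapasin, rose by 1.90 in 287, 0.80 in 621 and 0.36 in AH47A on the log2 scale. H2-D1, an MHC class I heavy chain, rose by 1.45 in 287 and 0.56 in AH47A, and B2m, its light chain, by 1.13 in 287 and 0.56 in 621. Calr, which encodes calreticulin, fell in 287 (-1.17) and 621 (-0.37). Among interferon-linked regulators of immunoproteasome genes, Irf9, a subunit of an interferon-activated complex, rose by 2.49, 1.60 and 1.18 in 287, 621 and AH47A on the log2 scale, and Irf1 by 0.36, 0.44 and 0.59. Markers of other cell types moved as well. The median myeloid sum went from 19.0 to 44.5 CPM in 287 (highest 58.3), from 7.59 to 15.5 CPM in AH47A and from 5.06 to 11.1 CPM in 621. Of the 3 myeloid markers tested, Itgam rose in all 3 lines and Cd14 in 287. The median plasma cell marker sum went from 95.03 to 54.7 CPM in 287, from 65.5 to 54.6 CPM in 621 and from 94.0 to 84.6 CPM in AH47A. In 287, Zap70, a T cell kinase, rose from a median of 5.51 to 18.2 CPM. Lyz2, Adgre1 and Cd3e stayed at or under 0.230 CPM in 287, and the B cell markers Cd22, Cd79a and Cd79b fell in every line. Their part in these changes was not tested.

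The genes that build and regulate the particle were also read, against the shares of all genes just given. Of 5 assembly chaperones, 4 fell in 287, 3 fell in 621, and 1 rose and 1 fell in AH47A. Pomp, the chaperone of core maturation, fell by 1.01 ± 0.06 in 287, 0.43 ± 0.05 in 621 and 0.18 ± 0.05 in AH47A on the log2 scale. Of 8 transcriptional regulators of proteasome genes, 5 rose in 287, 5 rose and 3 fell in 621, and 4 rose in AH47A. Nfe2l1, whose product activates proteasome genes when proteasome activity is short, rose by 0.87 ± 0.07, 0.78 ± 0.07 and 0.43 ± 0.07 in 287, 621 and AH47A. Ngly1, whose product processes that factor, rose by 1.41, 0.74 and 0.84, and Nfe2l2, of the antioxidant response, by 1.42, 1.05 and 0.98. Of 14 associated proteins, 7 rose and 3 fell in 287, 5 rose and 2 fell in 621, and 3 rose and 5 fell in AH47A. Usp14, a deubiquitinase of the particle, rose by 0.95 in 287, and Zfand5, which stimulates degradation, by 0.96 there, 0.77 in 621 and 0.85 in AH47A.

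Each construct's own response, as the mean of the 3 lines, was then read. In the control, 25 of 41 members were called, 23 lower and 2 higher, against 53.7% of all genes in either direction. G280 gave 16 (all genes 37.2%), I192S 17 (41.6%), R246Q 16 (39.6%), R270H 20 (45.3%) and V170M 13 (29.2%). Psmb10 fell in all 6 constructs, by log2 changes from -0.97 in R270H and -0.87 in the control to -0.43 in V170M. Psmb8 fell in the control (-0.62) and in every mutant but V170M, where it was not called. Psmb9, Psme1 and Psme2 were not called in any construct. Psmd10 rose in the control (0.56), R270H (0.51), I192S (0.42) and G280 (0.38). These counts were lower without line 287: 10 in the control, 1 each in G280, I192S and R246Q, 6 in R270H and 0 in V170M. That fit also held fewer libraries, and how far the loss of power alone lowered the counts was not tested. With no replicate block the counts were 2 in the control and 0 in each mutant, since the difference between lines then stays in the error.

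The last comparison asked whether the mutants change proteasome genes. The 5 mutants share 1 set of 3 control libraries in each treatment, so their differences are not independent. Untreated, no member was called in any mutant, in their mean or jointly by edgeR, and none by DESeq2. The unadjusted p was under 0.05 for 2 members in R270H, 1 in I192S, 1 in the mean and 0 in G280, R246Q and V170M. Over all genes, 0.00812% were called in each mutant, 0.0162% in their mean and 0.0812% jointly. The response to nutlin-3a, mutant minus control, gave no member in any single mutant by edgeR, with 0 to 7 at an unadjusted p under 0.05, and DESeq2 called 1 in R270H and 1 in V170M. The share of all genes called by edgeR was 0.179% for G280, 0.00812% for I192S, 0.0243% for R246Q, 0% for R270H and 3.64% for V170M. The joint test of these responses called no member, with 2 at an unadjusted p under 0.05 (all genes 0.0162%).

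After nutlin-3a a few members stood apart from the control by small amounts. Psme3 had 397 CPM in AH47A, 318 in 287 and 526 in 621 in the control. It had 470 to 485 CPM in the AH47A libraries of G280, R246Q, R270H and V170M and 461 in that of I192S, 331 to 365 CPM in the mutants of 287 and 547 to 715 CPM in those of 621. Every mutant library was above the control of its line. The log2 difference for the mean of the mutants was 0.21 ± 0.05 (adjusted p = 0.004), and that of their response 0.25 ± 0.07 (adjusted p = 0.042), where 3.38% of all genes were called. The call on the response was lost without the libraries of AH47A (adjusted p = 0.3), 287 (0.18) or 621 (0.12). Psmd8 was the reverse, at 285, 367 and 347 CPM in the control of AH47A, 287 and 621 and lower in all 15 mutant libraries. Its mean difference was -0.19 ± 0.04 (adjusted p = 0.0029).

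In the mean of the mutants, 5 members were called, against 16% of all genes: Psme3, Psmb8 (0.29 ± 0.10), Psmc1 (0.18 ± 0.05) and Psmd12 (0.18 ± 0.06) were higher and Psmd8 lower. Psmb8 had 39.1, 52.9 and 43.4 CPM in the control libraries of AH47A, 287 and 621, and all 15 mutant libraries were above the control of their line. Singly, G280 gave 5 members (all genes 10.5%), adding Psmd7 (0.24 ± 0.07) to Psme3, Psmc1, Psmb8 and Psmd8. V170M gave 6 (17.6%), with Psmb10 (0.47 ± 0.14) and Psma1 (0.26 ± 0.09) higher and Psmd10 (-0.36 ± 0.12) and Psmd11 (-0.20 ± 0.07) lower beside Psme3 and Psmd8. I192S gave Psmd8 (2.66%), and R246Q (6.06%) and R270H (3.64%) gave Psme3. Jointly, 2 of 41 members differed, Psmd8 (adjusted p = 0.016) and Psme3 (0.038), where 9.17% of all genes did. The calls rest on all 3 lines and on the model. Leaving out 1 line left 0 to 2 in G280, V170M and the mean, and 0 in I192S, R246Q and R270H. With no replicate block none was called in any mutant, and none in an additive fit without line by treatment. A fit of the nutlin-treated libraries alone called 1 in V170M and 0 in the other mutants and jointly.

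**Figure D5:**
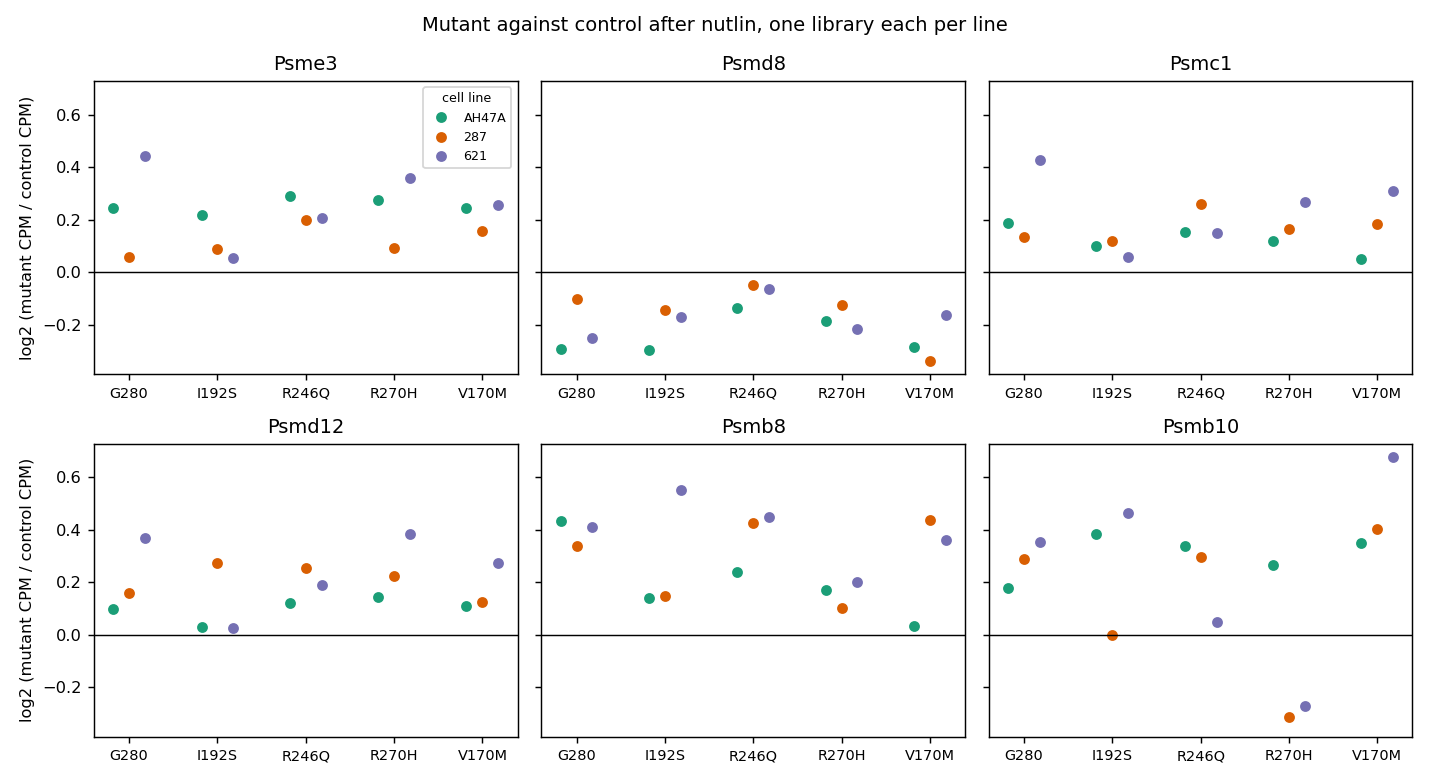
Log2 of mutant over control CPM after nutlin-3a (vertical axes) for Psme3, Psmd8, Psmc1, Psmd12, Psmb8 and Psmb10; each point is 1 library against the control library of its line, coloured by line. All 15 Psme3 points lie above 0 and all 15 Psmd8 points below it.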

How the data were processed

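RNA was sequenced from 36 libraries in 12 groups of construct and treatment, each with 3 libraries, 1 per line. The authors deposited whole-number counts per gene with a gene length column, made with featureCounts after bcl2fastq 1.8.4, per the submitters' processing notes, which name mm10. Not given in the sources used here: the aligner, the annotation and the strand setting. All 36 columns matched a sample, and 859 gene identifiers had no symbol.

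Genes were filtered with filterByExpr (minimum count 10), which kept 12321 of 27179 genes with 99.94% of the counts. They were scaled by TMM and fitted with edgeR 4.0.16 (R 4.3.3, quasi-likelihood test) in a model of 16 terms: line, treatment, construct, line by treatment and construct by treatment (20 residual degrees of freedom, biological coefficient of variation 9.68%). P-values were adjusted by Benjamini-Hochberg over all genes tested, and a call is an adjusted p under 0.05. Errors of log2 changes are standard errors. The fit was tested on simulated data with known changes.

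The replicate number is the cell line, which the labels give. Deviations of log CPM from the mean of the group correlated at 0.63 to 0.93 for 198 same-line pairs and at -0.62 to -0.11 for different lines. Each group holds 1 library per line and its deviations cancel out, so negative values between lines are in part fixed by construction. No 2 libraries agreed within sampling noise (chi-square per degree of freedom 1.94 or more). Members, gene lists and model were chosen with earlier results of these data known. The text names the immunoproteasome and catalytic genes, alternative forms, members called in a comparison (up to 5 per direction by size among the rest) and called genes of the lists. Alternatives were DESeq2 1.42.0, RLE size factors, no filter, fewer terms, fewer libraries, and leaving out each line or construct. Coordinates and promoters are from RefSeq on GRCm38.p6. Coordinates matched 43 members by gene number. Near-identical transcripts and overlapping exons were taken from GENCODE on the same genome. Results that need certain withheld genes are not reported here.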

Additional observations from a re-analysis of the deposited data

Results flagged for a closer look

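Among 60 groups of 6 libraries (10 genes in 6 combinations of line and treatment), 3 had 1 library set apart from its group by a gap to its neighbour past Dixon's critical share of the group's range. Chance sets apart about 1 in 20 groups. Psmb9 in nutlin-treated 287 had 36.7 CPM in the G280 library, the highest of its group. Psme2 in untreated 287 had 9.48 CPM in the V170M library, again the highest. Psme3 in nutlin-treated AH47A had 397 CPM in the control library, below all 5 mutants.

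For 23 named members the response to nutlin-3a differed between the lines by edgeR's joint test of the line by treatment terms. Of all 41 tested members 34 did, and of all genes tested 60.3%. Members were named partly for called responses of single lines, so the count of named members is not a share of the family. The adjusted p was 1.7e-11 for Psmc1, 3.8e-11 for Psme3, 4.9e-08 for Psmd7, 9.1e-08 for Psma2, 9.8e-08 for Psmd13, 6.4e-07 for Psma6 and 1.6e-06 for Psmd8. It was 2.0e-06 for Psmd3, 3.2e-06 for Psmb2, 3.9e-06 for Psmb10, 4.0e-06 for Psme4 and 8.8e-06 for Psmb7. It was 3.7e-05 for Psma5, 3.8e-05 for Psmd6, 5.5e-05 for Psmb6, 6.5e-05 for Psmb5, 0.00015 for Psmd14, 0.00028 for Psmd11 and 0.00043 for Psmb4. For Psmb8 it was 0.0026, for Psmb9 0.0051, for Psmd5 0.0051 and for Psmc2 0.017. Psme3 was also set apart by its response in the mean of the mutants against the control (adjusted p = 0.042).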

How the results depend on the processing

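The cell line served as the replicate block, and line responses could not be fitted without it. With no replicate block, members called in the mean response went from 4 higher and 26 lower to 2 and 16, in the control from 25 to 2, and in each mutant's response to 0. The same fit called 0 members for each mutant against the control after nutlin-3a and 0 jointly. An additive fit gave 15 for the control response, 2 each for G280 and R246Q, 5 for I192S, 9 for R270H and 0 for V170M, and 0 for every mutant after nutlin-3a and jointly. Fitting only the libraries compared gave 11 higher members in AH47A instead of 7, and 0 for G280, I192S, R246Q, R270H and the joint test after nutlin-3a, with 1 for V170M; it could not be fitted for mean or construct responses. DESeq2 gave 3 in R270H after nutlin-3a, 5 jointly, and 1 each in the response differences of R270H and V170M. RLE size factors gave 1 jointly. With no filter, I192S and R246Q had 0 and the joint test 1.

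Leaving out 1 line or construct gave 5 to 10 higher and 3 to 6 lower members in AH47A, 4 to 7 higher in 621, and 1 to 5 higher and 16 to 30 lower in the mean. Construct responses ranged from 10 to 25 in the control, 1 to 20 in G280, 1 to 21 in I192S and R246Q, 6 to 21 in R270H and 0 to 23 in V170M. After nutlin-3a, G280 (5 with all libraries) and V170M (6) ranged from 0 to 2, and I192S, R246Q and R270H each went from 1 to 0. The joint count fell from 2 to 0 without 287 or 621. In the joint test, Psmd8 (adjusted p of 0.11 to 0.20) and Psme3 (0.095 to 0.31) lost their calls whichever line was left out. The members counted without AH47A were therefore others. The cause was not tested.

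The mean response of Psmb7 ranged from -0.10 without 621 to 0.13 without 287. The additive fit, whose line term averages both treatments by construction, reversed line differences: 287 minus AH47A was -0.052 for Psmb6, -0.061 for Psmb7, -0.073 for Psma2 and -0.12 for Psmd6. Against AH47A, 621 was at -0.29 for Psmb10 and 0.14 for Psme3. Against 287, 621 was at 0.058 for Psmb7, 0.42 for Psme3, 0.015 for Psma4, 0.0079 for Psmd13 and 0.019 for Psmc4. Low counts limit Psme2, at 21 to 87 a library, and 82.5% of its longest transcript also matches Psme2b. The cause of the low counts was not tested.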
